A study of Mus musculus with 17 samples.

Results

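The beta-1,4-galactosyltransferases are 7 enzymes of the Golgi apparatus, encoded by B4galt1 to B4galt7, that move galactose from UDP-galactose onto the growing sugar chains of glycoproteins, proteoglycans and glycolipids. B4galt1 to B4galt4 add it to N-acetylglucosamine and so make N-acetyllactosamine, the unit that is later extended or capped with sialic acid, fucose or a further galactose. B4galt5 and B4galt6 add it to glucosylceramide and make lactosylceramide, the precursor of gangliosides and most other glycosphingolipids, and B4galt7 adds the first galactose of the linker that joins glycosaminoglycan chains to proteoglycan cores. On blood cells these chains carry blood group antigens and ligands of selectins and galectins.

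All 7 genes were found by name in the count tables of both leukaemia models, 7 of 33470 genes in the series. The family was singled out because B4galt5 was among the genes with the largest increase between leukaemic and preleukaemic FANCA-null cells. Values of the family in that contrast, and in every other contrast with the same leukaemic mice, are therefore given as a description without a test.

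RNA-seq was made from erythroid blasts of 17 mice, with 1 sample listed per mouse. Every mouse was labelled as carrying the Spi1 transgene, described by the study as constitutively expressed. Model 1 (DBA2JxFVB/N mice) held 4 TgSpi1FA+/+ preleukaemic mice (Fanca wild type, preleukemic_445, preleukemic_479, preleukemic_451 and preleukemic_138), 3 TgSpi1FA−/− preleukaemic mice (Fanca deleted, preleukemic_77, preleukemic_224 and preleukemic_40) and 3 TgSpi1FA−/− leukaemic mice (leukemic_26, leukemic_28 and leukemic_39). Model 2 (DBA2J mice) held 4 preleukaemic (preleukemic_633, preleukemic_663, preleukemic_812 and preleukemic_837) and 3 leukaemic (leukemic_601, leukemic_606 and leukemic_921) TgSpi1FA+/+ mice, the latter obtained by serial blood transfusion of preleukaemic mice. Blasts were kept in culture with EPO. Preleukaemic blasts depend on EPO and form no tumour, whereas leukaemic blasts grow without EPO and form tumours. Strain, library protocol, the route to leukaemia and the Fanca genotype of the leukaemic mice differ between the models and cannot be told apart. Each model was therefore analysed on its own. The study reports a Kit mutation in leukemic_26 and an Nras mutation in leukemic_28 and leukemic_39. It describes leukaemic cells of model 2 as carrying gain-of-function KIT mutations. The part of these mutations in the values below was not tested. Mice are named by the stage and number of their titles. The titles of preleukemic_77, preleukemic_224 and preleukemic_40 say preleukaemic while another label says leukaemic, and the titles were followed.

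Libraries of model 1 held 29964576 to 38217654 counts and those of model 2 held 37726753 to 40514205. Fanca was at 53.1 ± 28.5 CPM (counts scaled to library size; SD, n = 4) in TgSpi1FA+/+ preleukaemic blasts of model 1, 1.38 ± 0.852 (n = 3) in TgSpi1FA−/− preleukaemic and 1.28 ± 0.364 (n = 3) in TgSpi1FA−/− leukaemic blasts. Each of 12 erythroid markers was above 3 counts in every group, and their summed level was 2265 to 4410 CPM in TgSpi1FA−/− leukaemic, 5115 to 5765 in TgSpi1FA−/− preleukaemic and 5282 to 8355 in TgSpi1FA+/+ preleukaemic blasts. Of the other cell types, 7 megakaryocyte markers summed to 167 to 253 CPM in the TgSpi1FA−/− leukaemic group to 31.3 to 40.2 in the TgSpi1FA−/− preleukaemic group and to 45.4 to 196 in the TgSpi1FA+/+ preleukaemic group, and none of the 7 stayed at or under 3 counts in the first. Most of the leukaemic sum came from Itga2b (92.8 to 243 CPM, against 16.1 to 21.8 in TgSpi1FA−/− preleukaemic mice), while the median of Pf4 was 5.55 CPM against 13.4. Stromal markers summed to 0.939 to 6.01 CPM in TgSpi1FA−/− leukaemic, 9.80 to 276 in TgSpi1FA−/− preleukaemic and 2.40 to 52.8 in TgSpi1FA+/+ preleukaemic mice. In the same order, mast cell markers summed to 45.1 to 73.6, 5.64 to 40.7 and 18.0 to 208 CPM. T cell markers summed to 3.86 to 5.54, 0.819 to 1.49 and 0.929 to 3.72 CPM. B cell markers stayed under 1 CPM, and endothelial markers overlapped between the groups. In the first table of model 1, macrophage markers stayed under 4 CPM and neutrophil markers under 1 CPM in every library. Elane, Ltf and Ngp were at or under 3 counts in every library of that table. In the second table, macrophage markers reached 12.8 CPM and neutrophil markers 1.20 CPM in TgSpi1FA−/− leukaemic mice. Both sums overlapped there between TgSpi1FA−/− leukaemic and TgSpi1FA+/+ preleukaemic mice. Spi1 also differed within the leukaemic mice of the first table, at 630 CPM in leukemic_26, 220 in leukemic_28 and 3.88 in leukemic_39. The preleukaemic mice of model 1 were at 467 to 1061 CPM in that table. The library labelled leukemic_39 thus had almost none of the transcript that its label implies, also in the second table of counts described below (4.67 CPM). Libraries preleukemic_445 and preleukemic_479 were much more alike than any other pair of the group, and results were also computed with both as 1 sample.

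The 250 bases before the RefSeq start (GRCm38.p6) are shown for the 2 genes that were near zero in preleukaemic and present in leukaemic TgSpi1FA−/− blasts, B4galt5 (chr2:167349179-167349428, minus strand) and B4galt2 (chr4:117883477-117883726, minus strand), and for B4galt1 (chr4:40853985-40854234, minus strand), whose groups overlapped. Capitals mark the strings GATAA and GAGGAA and the string CACCC, searched on both strands as plain letter strings that erythroid GATA, ETS and KLF factors are known to bind, and no match overlapped another.
B4galt5: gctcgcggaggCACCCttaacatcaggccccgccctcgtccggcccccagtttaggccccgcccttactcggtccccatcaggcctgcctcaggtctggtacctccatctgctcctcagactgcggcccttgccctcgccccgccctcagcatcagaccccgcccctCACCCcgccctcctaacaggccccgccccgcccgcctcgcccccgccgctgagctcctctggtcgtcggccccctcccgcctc
B4galt2: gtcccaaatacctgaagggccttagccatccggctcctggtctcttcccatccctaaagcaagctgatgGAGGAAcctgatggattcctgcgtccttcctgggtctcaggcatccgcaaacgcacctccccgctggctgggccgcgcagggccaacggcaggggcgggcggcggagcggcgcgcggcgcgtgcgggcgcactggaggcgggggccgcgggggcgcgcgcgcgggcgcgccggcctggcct
B4galt1: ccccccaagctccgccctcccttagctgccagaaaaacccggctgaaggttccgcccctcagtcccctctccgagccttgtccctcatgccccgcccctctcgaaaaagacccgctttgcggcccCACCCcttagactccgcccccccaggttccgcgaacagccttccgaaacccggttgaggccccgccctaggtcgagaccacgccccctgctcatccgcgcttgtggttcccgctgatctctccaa
GATAA was in none of these windows and in 23.0% of the windows of all 27025 genes. GAGGAA occurred once, before B4galt2, and in 23.1% of all windows. CACCC occurred 2 times before B4galt5 and once before B4galt1, and in 51.3% of all windows. The windows of the pair were rich in G and C, at 73.2% for B4galt5 and 72.8% for B4galt2 against a median of 52.0% over all genes, and B4galt1 had 66.4%. The dinucleotide CG occurred 21 times before B4galt5, 30 times before B4galt2 and 19 times before B4galt1, with a median of 6 over all genes. These matches describe the letters of the windows and not binding.

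B4galt5 (chr2:167298444-167349183, minus strand, no overlapping gene), the main lactosylceramide synthase of most tissues, had at most 2 counts in each preleukaemic mouse of model 1 and 955 or more in each leukaemic one in the first table, while in the second table preleukemic_138 had 407. In the first table it had 0 counts in TgSpi1FA−/− preleukaemic mice preleukemic_77, preleukemic_224 and preleukemic_40, which allows up to 3 counts per library. In the leukaemic mice it had 955 counts in leukemic_26, 2536 in leukemic_28 and 3873 in leukemic_39, or 26.2, 64.8 and 98.2 CPM. TgSpi1FA+/+ preleukaemic mice had 2 counts in preleukemic_445 and 0 in preleukemic_479, preleukemic_451 and preleukemic_138. The groups did not overlap, and the leukaemic mean of 63.1 ± 36.1 CPM (SD, n = 3) was at least 668-fold higher than a floor of 3 counts per library in the TgSpi1FA−/− preleukaemic group. With the lowest leukaemic library alone, leukemic_26, the bound was 277-fold, so the difference did not rest on leukemic_39. Over all genes of the table, 87 of 26029 (0.334%) had at most 3 counts in each TgSpi1FA−/− preleukaemic library and at least 50 in each leukaemic one, while 8 had the opposite pattern. In bulk RNA a higher level per cell and a larger share of expressing cells cannot be told apart.

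**Figure D1:**
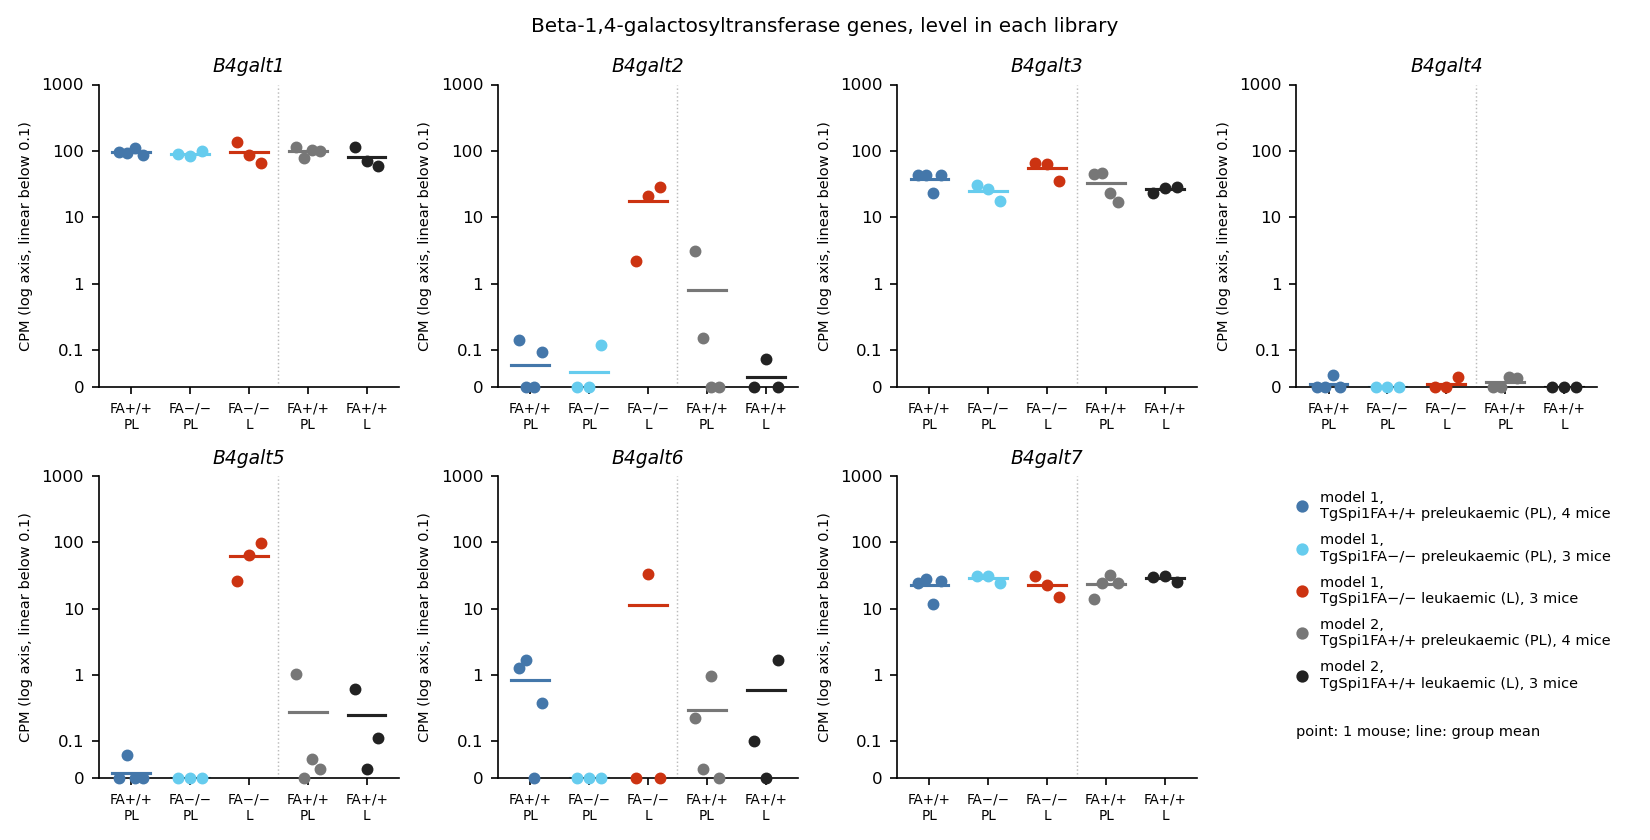
Level of each family gene (CPM, log axis that is linear below 0.1) in the 17 libraries by group, with 1 point per mouse and a line at the group mean. B4galt5 and B4galt2 are near 0 in all groups but the 3 TgSpi1FA−/− leukaemic mice, apart from up to 3.05 CPM in model 2, and B4galt6 is high in 1 of these mice.

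B4galt6 (chr18:20684599-20746404, minus strand, no overlapping gene), the second lactosylceramide synthase and known best from brain, was present in a single leukaemic mouse of model 1. It had 1323 counts (33.8 CPM) in leukemic_28 and 0 in leukemic_26 and leukemic_39. The TgSpi1FA−/− preleukaemic mice preleukemic_77, preleukemic_224 and preleukemic_40 had 0 counts each, and the TgSpi1FA+/+ preleukaemic mice had 55 in preleukemic_445, 12 in preleukemic_479, 0 in preleukemic_451 and 45 in preleukemic_138. Groups therefore overlapped at 0 in both contrasts. The fitted difference between TgSpi1FA−/− and TgSpi1FA+/+ preleukaemic blasts did not pass (adjusted p = 0.643, edgeR quasi-likelihood test). In the first table the TgSpi1FA+/+ mean of 0.844 ± 0.791 CPM (SD, n = 4) was 8.94-fold above the counting floor of the TgSpi1FA−/− preleukaemic group. This bound covers counting error only, and the second table did not repeat that level. There the same TgSpi1FA+/+ mice were at 0.0281 ± 0.0271 CPM (SD, n = 4).

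Summed over both lactosylceramide synthases, the TgSpi1FA−/− preleukaemic mice had 0 counts each, and the leukaemic mice had 955 in leukemic_26, 3859 in leukemic_28 and 3873 in leukemic_39. The TgSpi1FA+/+ preleukaemic mice had 57 counts in preleukemic_445, 12 in preleukemic_479, 0 in preleukemic_451 and 45 in preleukemic_138. Hence 4 of the 7 preleukaemic mice of model 1 had no count of either gene in the first table. In the second table preleukemic_451, 1 of these, had 4 counts, and preleukemic_138 had 414. The enzyme before this step, encoded by Ugcg (glucosylceramide synthase), was well expressed throughout, at 346 ± 170 CPM (SD, n = 3) in TgSpi1FA−/− preleukaemic and 337 ± 50.2 (n = 3) in leukaemic blasts (adjusted p = 0.946, edgeR). St3gal5, which converts lactosylceramide to the ganglioside GM3, was at 102 ± 26.1 and 74.9 ± 4.24 CPM (adjusted p = 0.41).

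B4galt2 (chr4:117869260-117883487, minus strand), an N-acetyllactosamine synthase, followed B4galt5 in the same mice. Its counts in TgSpi1FA−/− preleukaemic blasts were 0 in preleukemic_77, 4 in preleukemic_224 and 0 in preleukemic_40. In the leukaemic mice they were 81 in leukemic_26, 808 in leukemic_28 and 1140 in leukemic_39, or 2.22, 20.6 and 28.9 CPM. TgSpi1FA+/+ preleukaemic mice had 0 counts in preleukemic_445, 3 in preleukemic_479, 0 in preleukemic_451 and 5 in preleukemic_138. The groups did not overlap, and leukemic_26 was the lowest of the leukaemic mice for both genes. The ratio of pooled counts, 2029 against 4 and scaled to library size, was 421, which does not measure the spread between mice. All 4 preleukaemic counts came from preleukemic_224, and the fitted log2 fold change of 8.61 was 12.2 without that mouse and 8.03 to 9.13 without each other one. The gene overlaps Slc6a9 on the other strand and Ccdc24 on its own, and the strand setting of the counting was not given in the sources used here. Slc6a9 was at 34.2 to 91.5 CPM in TgSpi1FA−/− preleukaemic and at 44.0 to 54.8 CPM in leukaemic blasts. Ccdc24 had 0 counts in the former and 4, 23 and 25 in leukemic_26, leukemic_28 and leukemic_39. Both were looked at after their values were seen.

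B4galt1 (chr4:40804602-40854005, minus strand), whose product also joins alpha-lactalbumin to form lactose synthase, had the highest level per length of exon in every library of model 1 but leukemic_39, and its groups overlapped. It was at 93.9, 85.7, 109 and 97.1 CPM in TgSpi1FA+/+ preleukaemic mice preleukemic_445, preleukemic_479, preleukemic_451 and preleukemic_138. In TgSpi1FA−/− preleukaemic mice it was at 83.1 in preleukemic_77, 99.4 in preleukemic_224 and 88.8 in preleukemic_40, and in the leukaemic mice at 134 in leukemic_26, 87.7 in leukemic_28 and 66.5 in leukemic_39. The leukaemic libraries lay on both sides of the preleukaemic ones, and the order of the 3 leukaemic mice was the reverse of that for B4galt5 and B4galt2. Between TgSpi1FA−/− and TgSpi1FA+/+ preleukaemic blasts the log2 fold change was −0.09 (95% interval −0.58 to 0.39, adjusted p = 0.943, edgeR).

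B4galt3 (chr1:171270328-171276896, plus strand), a further N-acetyllactosamine synthase, had its lowest group mean in TgSpi1FA−/− preleukaemic blasts. It was at 26.5 CPM in preleukemic_77, 17.4 in preleukemic_224 and 30.5 in preleukemic_40, and at 64.7 in leukemic_26, 64.4 in leukemic_28 and 34.6 in leukemic_39. These groups did not overlap, and the leukaemic mean was 2.20 times that of the preleukaemic mice. The TgSpi1FA+/+ preleukaemic mice, at 42.8, 43.1, 23.4 and 43.6 CPM in preleukemic_445, preleukemic_479, preleukemic_451 and preleukemic_138, overlapped both groups. Their difference to TgSpi1FA−/− preleukaemic blasts did not pass (log2 fold change −0.63, 95% interval −1.34 to 0.09, adjusted p = 0.614, edgeR). The gene overlaps Ppox, a haem synthesis gene on the other strand, which was at 15.6 to 42.1 CPM in TgSpi1FA−/− preleukaemic and 41.8 to 59.3 CPM in leukaemic blasts and was also looked at after its values were seen. The part of Ppox reads in the values of B4galt3 was not tested. Nor was the part of the cell type marker levels or of Spi1 in the values of B4galt5 and B4galt2.

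B4galt7 (chr13:55599896-55610443, plus strand) was present in every library. It was at 28.3, 26.3, 12.0 and 24.4 CPM in TgSpi1FA+/+ preleukaemic mice preleukemic_445, preleukemic_479, preleukemic_451 and preleukemic_138, at 31.5, 24.5 and 31.1 CPM in TgSpi1FA−/− preleukaemic mice preleukemic_77, preleukemic_224 and preleukemic_40, and at 31.5, 22.7 and 14.8 CPM in leukaemic mice leukemic_26, leukemic_28 and leukemic_39. All 3 groups overlapped. The difference between TgSpi1FA−/− and TgSpi1FA+/+ preleukaemic blasts was 0.35 on the log2 scale (95% interval −0.40 to 1.11, adjusted p = 0.821, edgeR).

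B4galt4 (chr16:38742264-38769049, plus strand), the remaining N-acetyllactosamine synthase, had 1 count in preleukemic_451, 1 in leukemic_39 and 0 in each other library of model 1. It was under the filter on low counts in both models.

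Of the 7 members, 6 passed the filter in model 1, and B4galt2 and B4galt5 did so only through the leukaemic mice. In the leukaemic contrast, 3 of the 7 (B4galt2, B4galt3 and B4galt5) were higher without overlap and none was lower. Over all 13393 genes tested, 19.4% were higher and 19.3% lower without overlap, and since the family was chosen on this contrast nothing is read from the count. Between TgSpi1FA−/− and TgSpi1FA+/+ preleukaemic blasts B4galt2 and B4galt5 had too few counts to be called, and none of the other 4 was called, which took a fold change of 1.5 or more with an adjusted p below 0.05. The share called among all genes was 0.00747% (1 of 13393), so this comparison called almost nothing, while DESeq2 called 250 genes and no member. The 2 groups overlapped for all 7 members, and 8.53% of all genes tested did not overlap. It shares its 3 TgSpi1FA−/− preleukaemic libraries with the leukaemic contrast.

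The family was also summed per kilobase of annotated exons, which allows its members to be compared. The total was 35.9 ± 1.18 CPM per kb (SD, n = 3) in TgSpi1FA−/− preleukaemic blasts, 37.8 ± 2.69 (n = 4) in TgSpi1FA+/+ preleukaemic and 60.7 ± 4.81 (n = 3) in leukaemic blasts. The leukaemic libraries, at 61.0 in leukemic_26, 65.3 in leukemic_28 and 55.7 in leukemic_39, were above all preleukaemic ones of model 1, of which the highest was 40.1. B4galt1 made up 55.5% to 66.8% of the total in TgSpi1FA−/− preleukaemic mice and 28.2% to 52.1% in leukaemic mice. B4galt5 went from 0% to 9.97% in leukemic_26, 23.0% in leukemic_28 and 40.9% in leukemic_39, where it was the largest member. Without B4galt2, B4galt5 and B4galt6 the remaining members summed to 54.4 CPM per kb in leukemic_26, 40.3 in leukemic_28 and 27.1 in leukemic_39, against 35.1 to 37.3 in TgSpi1FA−/− preleukaemic mice. In the second table the leukaemic totals were 56.4 in leukemic_26, 62.9 in leukemic_28 and 40.7 in leukemic_39, and they overlapped the 36.5 to 54.8 CPM per kb of the TgSpi1FA+/+ preleukaemic mice.

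**Figure D2:**
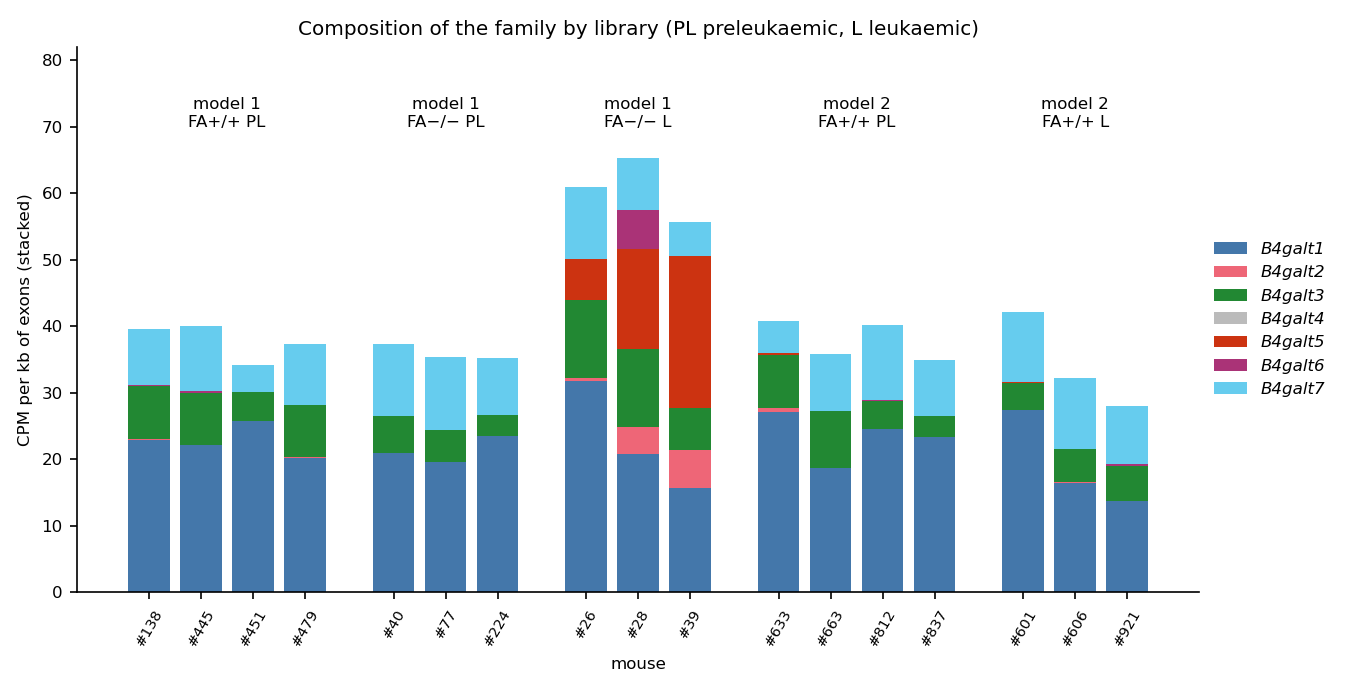
Stacked level of the family genes (CPM per kb of exons) in each library of the first table of model 1 and of model 2, by group, with the number of each mouse on the horizontal axis. The 3 TgSpi1FA−/− leukaemic mice reach 55.7 to 65.3 CPM per kb with the smallest part from B4galt5 and B4galt2 in leukemic_26 and the largest in leukemic_39, while all other libraries consist almost entirely of B4galt1, B4galt3 and B4galt7 and stay at 42.2 or less.

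In model 2, leukaemia in TgSpi1FA+/+ mice did not come with B4galt5. Its counts were 41 in preleukemic_633, 0 in preleukemic_663, 2 in preleukemic_812 and 1 in preleukemic_837 before, and 24 in leukemic_601, 1 in leukemic_606 and 4 in leukemic_921 after leukaemic progression (two-sided exact permutation test, p = 0.971, n = 4 and 3). The highest leukaemic library was at 0.616 CPM, so a level such as that of the lowest leukaemic mouse of model 1 would have been seen at this depth. B4galt2 had 121, 6, 0 and 0 counts in the same preleukaemic mice and 0, 3 and 0 in the leukaemic mice (exact permutation test, p = 0.571). Mouse preleukemic_633 was the highest preleukaemic library of the model for both genes. B4galt6 had 9, 1, 36 and 0 counts in the preleukaemic and 4, 0 and 60 in the leukaemic mice (exact permutation test, p = 0.686). The smallest p that 4 against 3 mice allow is 0.0571, so these exact tests could not pass 0.05.

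The members past the filter in model 2 were B4galt1, B4galt3 and B4galt7, and none was called, in a fit that called 0 of 12970 genes (0.0%). At an unadjusted p under 0.05 the fit held 2587 genes (19.9%) and none of the 3, and DESeq2 called 470 genes and no member. B4galt1 was at 114, 79.1, 104 and 98.9 CPM in preleukemic_633, preleukemic_663, preleukemic_812 and preleukemic_837 and at 116, 69.8 and 58.2 in leukemic_601, leukemic_606 and leukemic_921, with a log2 fold change of −0.29 (95% interval −0.91 to 0.33, adjusted p = 0.587, edgeR). B4galt3 was at 44.3, 46.9, 23.4 and 17.0 CPM before and 22.9, 27.3 and 28.8 after progression (log2 fold change −0.32, interval −1.21 to 0.57, adjusted p = 0.676). B4galt7 was at 13.9, 24.7, 32.6 and 24.3 CPM before and 30.4, 31.2 and 25.0 after (log2 fold change 0.27, interval −0.45 to 0.99, adjusted p = 0.66). Leukaemic and preleukaemic libraries overlapped for all 7 members, and 20.1% of the genes tested did not overlap. The family total was 34.1 ± 7.29 CPM per kb (SD, n = 3) in leukaemic and 37.9 ± 3.02 (n = 4) in preleukaemic blasts. Whether the leukaemic change differs between the models was not tested for the members, since the change in model 1 chose them.

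A second table held other counts of 7 of the same mice, 3 TgSpi1FA−/− leukaemic and 4 TgSpi1FA+/+ preleukaemic, with 35497594 to 171572736 counts per library. It repeats the mice and not the experiment, and whether its counts came from the same libraries as the first table was not tested. B4galt5 was at 8.96 CPM in leukemic_26, 57.0 in leukemic_28 and 62.5 in leukemic_39. Of the preleukaemic mice, preleukemic_138 had 407 counts (3.79 CPM), against 0 in the first table, and preleukemic_445, preleukemic_451 and preleukemic_479 had 1, 4 and 13 counts. B4galt2 was at 1.24, 14.6 and 18.2 CPM in leukemic_26, leukemic_28 and leukemic_39 and at 0.182 to 0.66 CPM in the preleukaemic mice, again highest in preleukemic_138. The order of the leukaemic mice was the same as in the first table for both genes, and neither gene overlapped between the groups, while 10.8% of the 17373 genes compared in this table were higher without overlap. B4galt6 again came from leukemic_28 alone, with 2679 counts (18.5 CPM) against 4 in leukemic_26 and 0 in leukemic_39. Its 55, 12 and 45 counts in preleukemic_445, preleukemic_479 and preleukemic_138 of the first table had no counterpart here, where the same mice had 2, 3 and 7 counts in deeper libraries. B4galt3, which was higher in leukaemic than in TgSpi1FA−/− preleukaemic mice above, was at 43.6 ± 14.5 CPM (SD, n = 3) in leukaemic and 43.6 ± 7.2 (n = 4) in TgSpi1FA+/+ preleukaemic blasts.

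**Figure D3:**
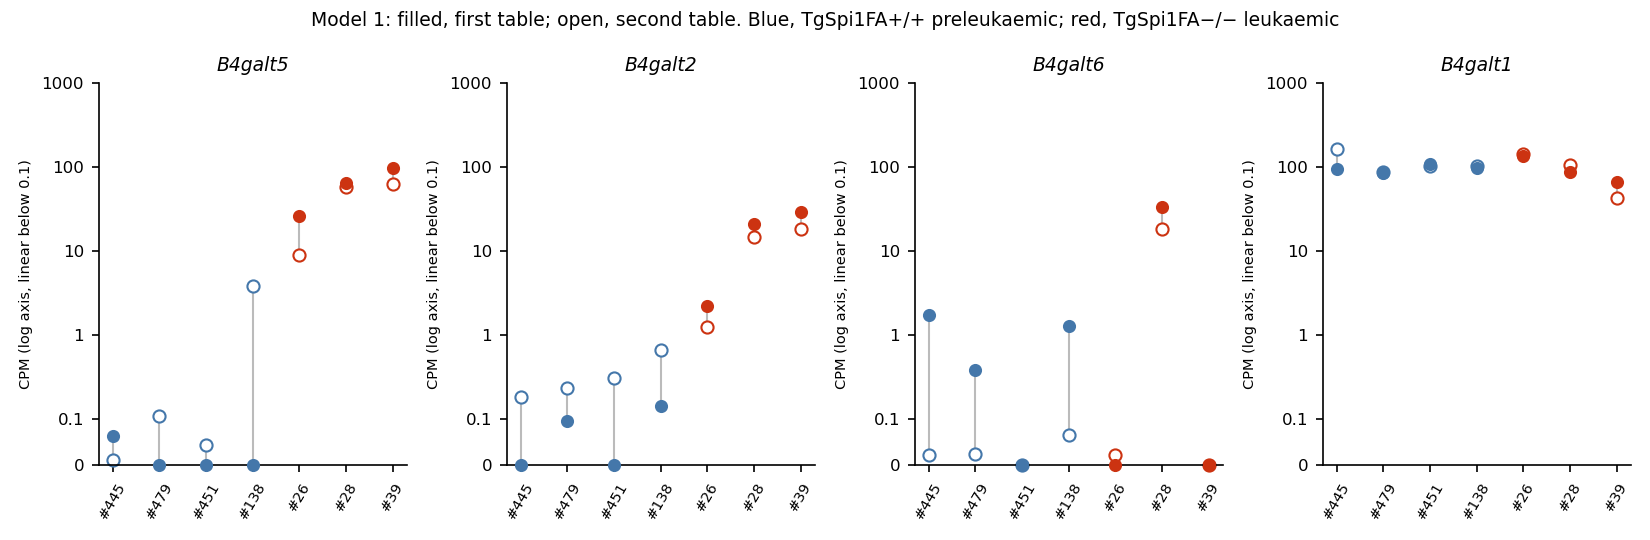
CPM (log axis, linear below 0.1) of B4galt5, B4galt2, B4galt6 and B4galt1 in the 7 mice of model 1 that both tables hold, given by number, with filled points for the first and open points for the second table. B4galt5 and B4galt2 are highest in leukemic_26, leukemic_28 and leukemic_39 in both tables, B4galt6 is high in leukemic_28 only, and preleukemic_138 has 3.79 CPM of B4galt5 in the second table only.

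The genes that supply, precede or follow the family were followed with 8 lists of 99 genes, of which 69 were tested in model 1. Between leukaemic and preleukaemic TgSpi1FA−/− blasts 3 rose and 6 fell, 13.0% of those tested against 13.3% of all genes (6.82% higher and 6.49% lower), so the lists were called no more often than the rest. Their median log2 fold change was −0.35, beside 0.00 over all genes. By list, 1 rose and 2 fell of 11 genes of N-glycan branching and N-acetyllactosamine chains, 1 rose of 11 genes that cap galactose, 1 rose and 1 fell of 13 genes of the proteoglycan linker and chains, 2 fell of 11 genes of glycosphingolipid breakdown and 1 fell of 5 galectins. None was called of 7 genes of glycosphingolipid synthesis, 8 of UDP-galactose supply and 3 beta-1,3-galactosyltransferases.

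Ggta1, which caps N-acetyllactosamine with an alpha-1,3-linked galactose, had the largest change. It had 5 counts in preleukemic_77, 1 in preleukemic_224 and 3 in preleukemic_40, and 75.8, 76.9 and 85.8 CPM in leukaemic mice leukemic_26, leukemic_28 and leukemic_39 (log2 fold change 9.65, adjusted p = 0.00195, edgeR). In TgSpi1FA+/+ preleukaemic mice it was at 13.0, 13.9, 5.29 and 39.9 CPM in preleukemic_445, preleukemic_479, preleukemic_451 and preleukemic_138. All of these were above every TgSpi1FA−/− preleukaemic mouse and below every leukaemic one, and the difference between the preleukaemic groups missed the threshold (log2 fold change −7.51, adjusted p = 0.0712, edgeR). It was called by DESeq2, without the filter, and without preleukemic_451 or preleukemic_138. Both contrasts use the same TgSpi1FA−/− preleukaemic libraries.

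Gcnt1, the core 2 branching enzyme of O-glycans, had the same order of group means. It was at 6.07, 1.08 and 9.83 CPM in preleukemic_77, preleukemic_224 and preleukemic_40, at 127, 134 and 90.8 CPM in leukemic_26, leukemic_28 and leukemic_39 (log2 fold change 4.37, adjusted p = 0.0203, edgeR), and at 8.36 to 73.0 CPM in TgSpi1FA+/+ preleukaemic mice. Chsy1 builds chondroitin chains on the linker to which B4galt7 adds the first galactose. It was at 12.2 to 35.6 CPM in TgSpi1FA−/− preleukaemic and 84.6 to 104 in leukaemic blasts (log2 fold change 1.94, adjusted p = 0.0125, edgeR). In TgSpi1FA+/+ preleukaemic blasts it was at 48.3 to 69.3 CPM. The Gcnt1 call was lost without preleukemic_77, preleukemic_224 or leukemic_28, with adjusted p of 0.0527 to 0.0613. In the second table, TgSpi1FA−/− leukaemic and TgSpi1FA+/+ preleukaemic mice overlapped for Chsy1 and Gcnt1. There Chsy1 was at 44.1 to 67.9 against 36.7 to 67.3 CPM, and Gcnt1 at 75.0 to 170 against 8.52 to 78.7 CPM.

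The genes that fell were Man2a1 (log2 fold change −1.99) and Man2a2 (−1.10), the Golgi mannosidases that trim N-glycans for branching, Hexa (−1.38) and Gba2 (−0.79), which break down gangliosides and glucosylceramide, Ext1 (−1.21), a heparan sulphate polymerase, and Lgals9 (−3.06), a galectin that binds galactose-ended chains. Man2a1 went from 122 to 175 CPM in TgSpi1FA−/− preleukaemic to 28.6 to 51.8 CPM in leukaemic mice. Hexa went from 128 to 251 CPM to 59.5 to 83.7 CPM. Lgals9 varied widely before, from 105 to 857 CPM, and was at 26.4 to 84.8 CPM after. Man2a1 kept its call without each of the 6 mice in turn. Calls of Hexa, Gba2, Ext1, Man2a2 and Lgals9 were each lost without 1 mouse or more, among them leukemic_28 for all 5. Lgals9, Man2a2 and Gba2 were also not called in a fit of the compared groups only, and Gba2 not with DESeq2 size factors, without the filter or with preleukemic_445 and preleukemic_479 as 1 sample.

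Between TgSpi1FA−/− and TgSpi1FA+/+ preleukaemic blasts 0 of the 69 genes were called by edgeR, 6 had an unadjusted p under 0.05 (8.65% of all genes did), and DESeq2 called Ggta1, Gcnt1 and Chsy1 as lower. The 4 smallest p belonged to Ggta1, to Chsy1 (log2 fold change −1.32, adjusted p = 0.513), to Gcnt1 (−3.18, adjusted p = 0.535) and to Gltp, a glycolipid carrier (−0.46, adjusted p = 0.535). In model 2, 0 of 71 were called by edgeR, 8 had an unadjusted p under 0.05 (19.9% of all genes did), and DESeq2 called Galk1. The 4 smallest p belonged to Galk1, the galactokinase (log2 fold change 1.82), C1galt1c1, the chaperone of core 1 O-glycan synthesis (0.83), Ext2 (−0.78) and B4galnt1, a ganglioside synthase (−0.77), with adjusted p of 0.162 to 0.164. Ggta1 was at 78.7, 4.05, 9.25 and 0.0742 CPM in preleukaemic mice preleukemic_633, preleukemic_663, preleukemic_812 and preleukemic_837 of model 2 and at 0.077, 17.2 and 1.87 CPM in leukaemic mice leukemic_601, leukemic_606 and leukemic_921, with wide overlap.

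**Figure D4:**
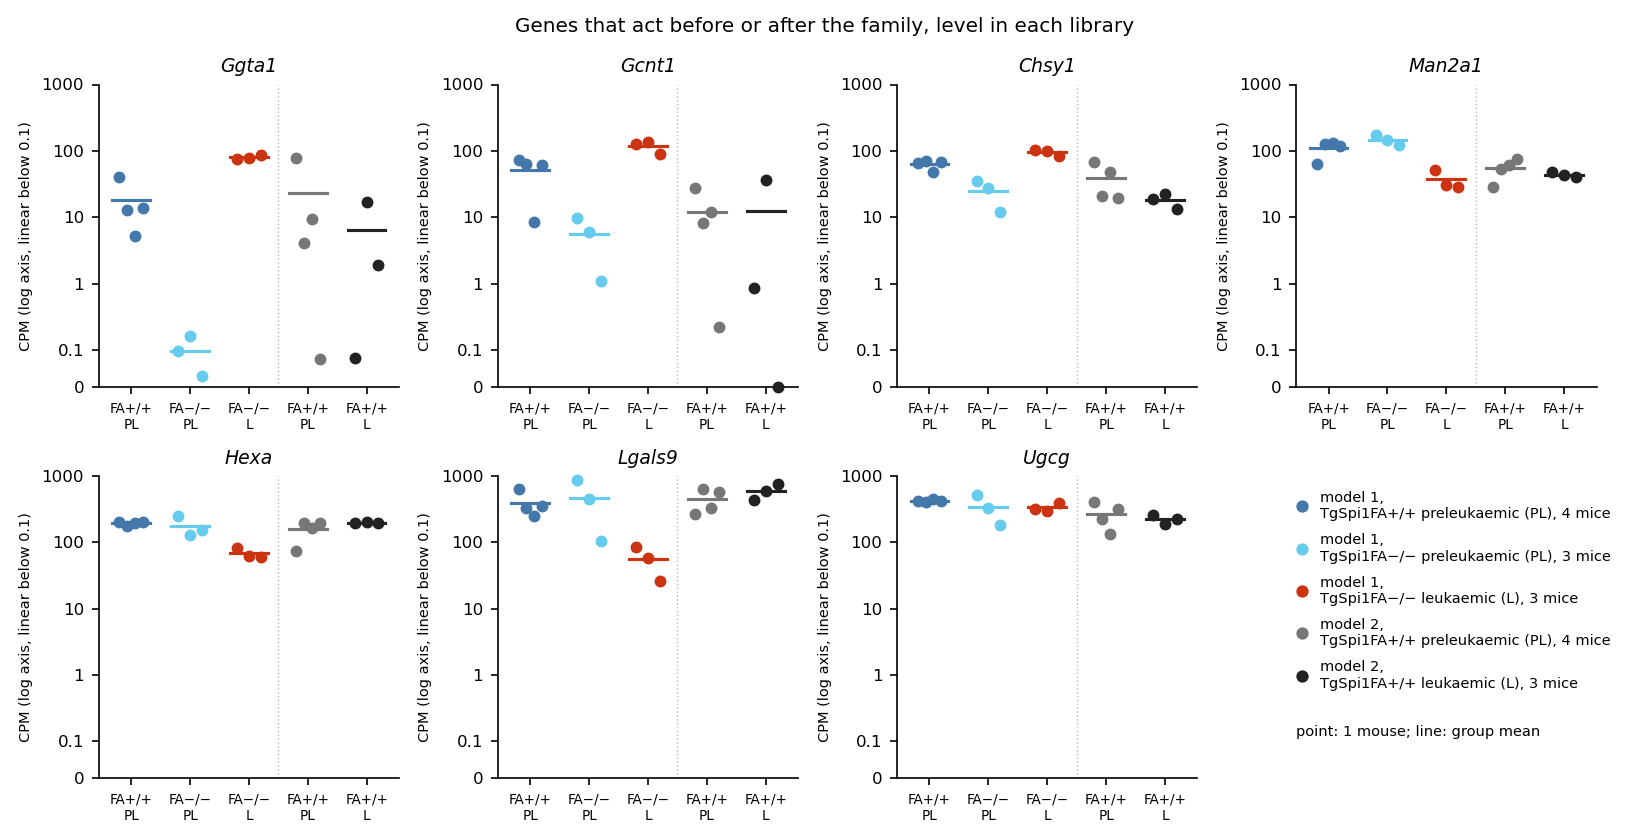
CPM (log axis, linear below 0.1) of 7 genes that act before or after the family, by group, with 1 point per mouse and a line at the mean. Ggta1, Gcnt1 and Chsy1 have their lowest mean in TgSpi1FA−/− preleukaemic mice and their highest in TgSpi1FA−/− leukaemic mice of model 1, Man2a1, Hexa and Lgals9 are lowest in the latter, and Ugcg overlaps between the 3 groups of model 1.

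Neighbours within 250 kb of the start of B4galt5 were also examined. Rnf114, a ubiquitin ligase, rose from 70.2 ± 9.94 CPM (SD, n = 3) in TgSpi1FA−/− preleukaemic to 133 ± 28.8 (n = 3) in leukaemic blasts (log2 fold change 0.92, adjusted p = 0.018, edgeR). Spata2 had a log2 fold change of 0.54 (adjusted p = 0.0555, edgeR) and Slc9a8 of 0.44 (adjusted p = 0.209). The nearest tested genes that do not overlap B4galt2, Atp6v0b, Dph2 and Ipo13, chosen after their values were seen, had log2 fold changes of −0.04, −0.20 and 0.14 and none was called.

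**Figure D5:**
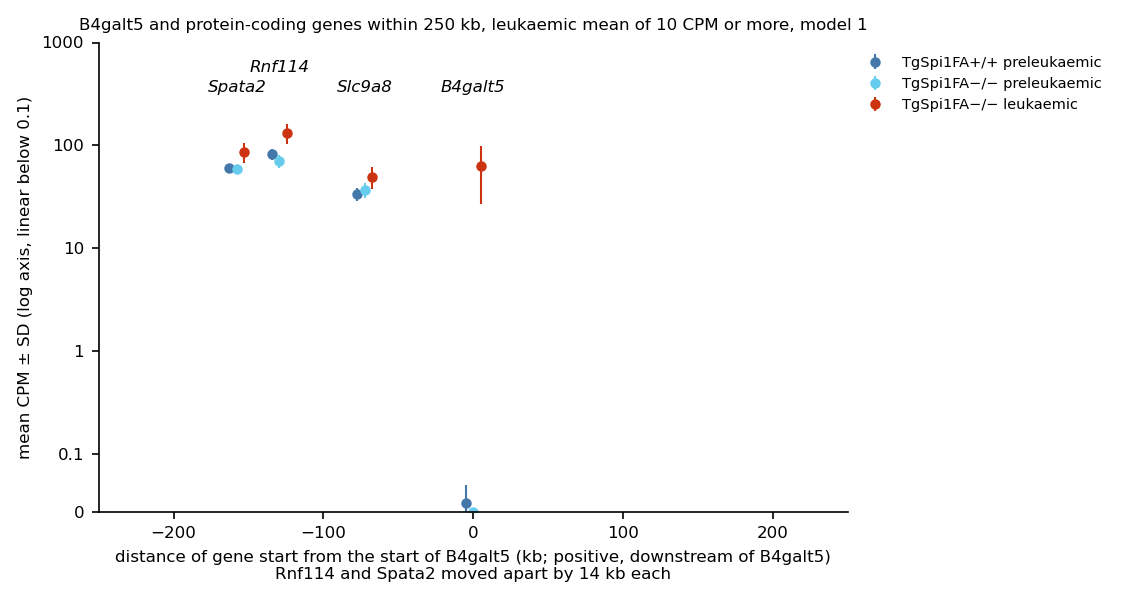
Mean CPM ± SD (log axis, linear below 0.1) of B4galt5 and the protein-coding genes within 250 kb of its start whose leukaemic mean is at least 10 CPM against the distance of their start in kb (Rnf114 and Spata2 moved apart), in the 3 groups of model 1. B4galt5 goes from 0 to 63.1 CPM between TgSpi1FA−/− preleukaemic and leukaemic blasts, whereas its neighbours Slc9a8, Spata2 and Rnf114 differ by a log2 fold change of 0.92 or less.

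Over the 10 libraries of model 1, genes whose log2 levels followed B4galt5 closely included Nfil3 (Pearson r 0.999, Spearman rho 0.743), Igf2bp1 (0.999 and 0.694), Ccdc102a (0.998 and 0.796) and Rbfox2 (0.997 and 0.694). In all, 121 genes had r of at least 0.95, and B4galt2 had 0.966. These libraries form an off and an on group for B4galt5, and r mostly restates that split. Genes that followed B4galt6 included Reln (r 0.944, rho 0.747), Meis2 (0.875 and 0.429), Atxn7l3 (0.856 and 0.772) and Gnaq (0.851 and 0.703), and no gene reached 0.95. B4galt6 was at 33.8 CPM in leukemic_28 and at most 1.72 CPM in each other library. Each of the named genes was also highest in leukemic_28, so these r rest mostly on that 1 mouse.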

How the data were processed

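Poly-A RNA of cultured erythroid blasts was sequenced after stranded dUTP library preparation, from 400 ng RNA with 8 min of fragmentation in model 1 and from 300 ng with 2 min in model 2. The authors deposited raw gene counts, and per the submitters' processing notes these came from bcl2fastq 2.17.1.14, STAR 2.5.3a and HTSeq 0.6.1p1 on mm10. The strand setting of HTSeq was not given in the sources used here. Of the ENSEMBL identifiers of model 1, 99.80% were found in the annotation of GRCm38.

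Counts were tested with edgeR 4.0.16 (quasi-likelihood test, TMM scaling, filterByExpr, R 4.3.3, limma 3.58.1), with 1 fit of the 3 groups of model 1 and 1 of model 2. Calls required a fold change of 1.5 or more with p below 0.05 after Benjamini-Hochberg adjustment. Genes under the filter were compared with two-sided exact permutation tests (scipy 1.17.1). CPM were computed on TMM effective library sizes. Folds against groups with at most 3 counts in every library are bounds at 3 counts per library. These floors cover counting error only. Each library was 1 mouse. The second table, with its own normalization, gives values only. Alternatives were DESeq2 1.42.0 (Wald test or size factors), other filters, fits of the compared groups only, preleukemic_445 and preleukemic_479 as 1 sample, and leaving out each mouse. The fits were tested on simulated data.

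The family and the gene lists were chosen with earlier results of these data known. All 7 members were named, and of the lists all genes called plus, where none was called, the 4 with the smallest p, with Ugcg and St3gal5, the steps beside B4galt5, added after their values were seen. Likeness to B4galt5 and B4galt6 was the correlation of log2(CPM + 0.5), with genes among the 5 closest named, gene models and pseudogenes left out. Genes within 250 kb of the start of B4galt5 were also described. Some genes that these rules select are not reported here. Promoter sequences are from RefSeq.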

Additional observations from a re-analysis of the deposited data

Results flagged for a closer look

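In 4 of 17 groups of 4 mice tested, 1 mouse lay far from the others by Dixon's criterion. Chance meets it in about 1 in 20 independent groups of normally distributed values. The 17 groups reuse the same mice across genes, and several hold values near 0. Their count is therefore not set against that rate. B4galt5 was at 1.03 CPM and B4galt2 at 3.05 CPM in preleukaemic mouse preleukemic_633 of model 2, each the highest of the group. B4galt5 was at 3.79 CPM in TgSpi1FA+/+ preleukaemic mouse preleukemic_138 in the second table, where the first table had 0 counts for the same mouse. B4galt3 was lowest in TgSpi1FA+/+ preleukaemic mouse preleukemic_451 of model 1, at 23.4 CPM. No cause was tested.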

How the results depend on the processing

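No paired analysis was possible because no mouse number is shared between the groups compared. No alternative called a member between preleukaemic genotypes or in model 2, with 0 to 0 members when each mouse was left out. Between preleukaemic genotypes the 1 gene called became 4 without the filter, 250 with DESeq2 and 1 to 16 without each mouse (16 without preleukemic_451, 5 without preleukemic_138, 2 without preleukemic_224), and the 0 pathway genes became 1 (Ggta1) without the filter, 3 with DESeq2 and 0 to 1 without each mouse. Between leukaemic and preleukaemic TgSpi1FA−/− blasts 1782 genes became 3100 with DESeq2 and 414 (without leukemic_28) to 2319 (without leukemic_26), with 822 without preleukemic_77, 418 without preleukemic_224, 833 without preleukemic_40 and 711 without leukemic_39, and the 9 pathway genes became 16 with DESeq2 and 3 (without leukemic_28) to 14 (without leukemic_26), with 5 without preleukemic_77 or preleukemic_40. In model 2, 0 genes became 470 with DESeq2 and 0 to 1 without each mouse, and 0 pathway genes became 1 (Galk1) with DESeq2 and 0 to 0 without each mouse. The fitted log2 difference of B4galt6 between leukaemic and preleukaemic TgSpi1FA−/− blasts was 0.00 without leukemic_28, where no count remained. The fitted log2 difference of B4galt1 in the same contrast was 0.09, and −0.22 without leukemic_26. The causes were not tested.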
